A study of Mus musculus with 6 samples.

Results

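The genes described here encode the ligands and receptors of axon guidance: ephrins and Eph receptors, netrins and Unc5 receptors, Slits and Robo receptors, semaphorins, plexins and neuropilins. They were chosen by a rule on symbols, from the deposited array values, with the brightest probe standing for each gene and Slit2 left out. The choice was made with earlier results of these data known. The letters of the rule matched 42 of the 19021 genes measured under a single symbol. Of these, 40 are guidance ligands or receptors and 2 matched by their letters only, Unc50, which is not a netrin receptor, and Plxna4os1, an RNA antisense to Plxna4. RefSeq holds 68 symbols of these families without Slit2, and the other 28, among them both remaining Slit genes, are not analysed here. The cells were NIT-1, a mouse beta cell line established from insulinomas of NOD mice that express the SV40 large T antigen under a rat insulin promoter. After 24 h in plates, 3 cultures received 4 µmol/L CdSO4 for 24 h and 3 stayed in medium without it (0 µmol/L). Biotin-labelled total RNA of each culture went onto an array of its own, 6 in all, which the labels call biological replicates. The dose was chosen by the study to cause oxidative damage, and the comparison asks which guidance genes changed under it.

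Guidance cues were named for steering growing axons, but the same proteins act wherever cells touch or migrate. Ephrins and Eph receptors sit on the membranes of neighbouring cells and signal in both directions, and in islets signalling between EphA receptors and ephrin-A ligands on adjoining beta cells is known to tune insulin secretion. Netrins act through Dcc, neogenin and the Unc5 receptors, which can trigger cell death when they are left without ligand. Semaphorins signal through plexins, and most of the secreted class 3 members also need neuropilins as co-receptors.

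Values are deposited signals on a scale taken to be log2, and changes are cadmium minus control. Each gene was tested with limma over all 19021 genes, and a gene was called at a Benjamini-Hochberg adjusted p under 0.05. The array medians were 3.34 to 3.35 in control and 3.39 to 3.40 in cadmium cultures, a difference of 0.049 (exact permutation test, two-sided, p = 0.1, the smallest that 3 against 3 allows). A background bound was set on each array at the 95th percentile of its 5222 negative control probes, between 6.12 and 6.25. Of the 40 guidance genes 27 lay under it on every array and 11 lay above it on every array of at least 1 group. Over all 19021 genes these numbers were 16253 and 2253. No fold is given where both groups lay under the bound. The 8 measured of 16 beta cell marker genes, Ins2 and Pdx1 among them, lay under it on every array, so the labelled cell type could not be checked from them. Control replicate 3 and cadmium replicate 1 deviated most from their group means, with a root mean square over all genes of 0.115 and 0.114 against 0.0872 to 0.0917 on the other 4 arrays.

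With cadmium, the receptor genes Epha2 and Ephb4 rose, and the receptor genes Epha4, Unc5c and Plxna2 and the ligand genes Efnb1, Sema3a and Sema4b fell. These 8 of 40 genes make 20.0%, where 12.2% of all genes tested were called. The 2 higher genes make 5.0% against 6.47% of all genes, and the 6 lower ones 15.0% against 5.73%. These shares of all genes take in genes at any level, whereas 33 of the 40 lay at or above the median level. When only genes at or above that level were tested, 24.4% of them were called, and 3 guidance genes were higher and 9 lower. The median change of the 40 was -0.004, beside 0.04 over all genes. Centring each array on its median left 2 higher and made 9 lower, with Efna3, Plxna1 and Plxna3 added, and over all genes moved the share of higher calls from 53.1% to 35.6%. When control replicate 2 was left out, 3 were lower, and so they were when cadmium replicate 2 or 3 was, with 6.04% to 6.21% of all genes called in these fits. When cadmium replicate 1 was left out 4 were higher, with Efnb2 and Sema7a added. Epha4, Unc5c, Efnb1, Epha2 and Ephb4 kept their calls with any 1 of the 6 arrays left out.

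**Figure D1:**
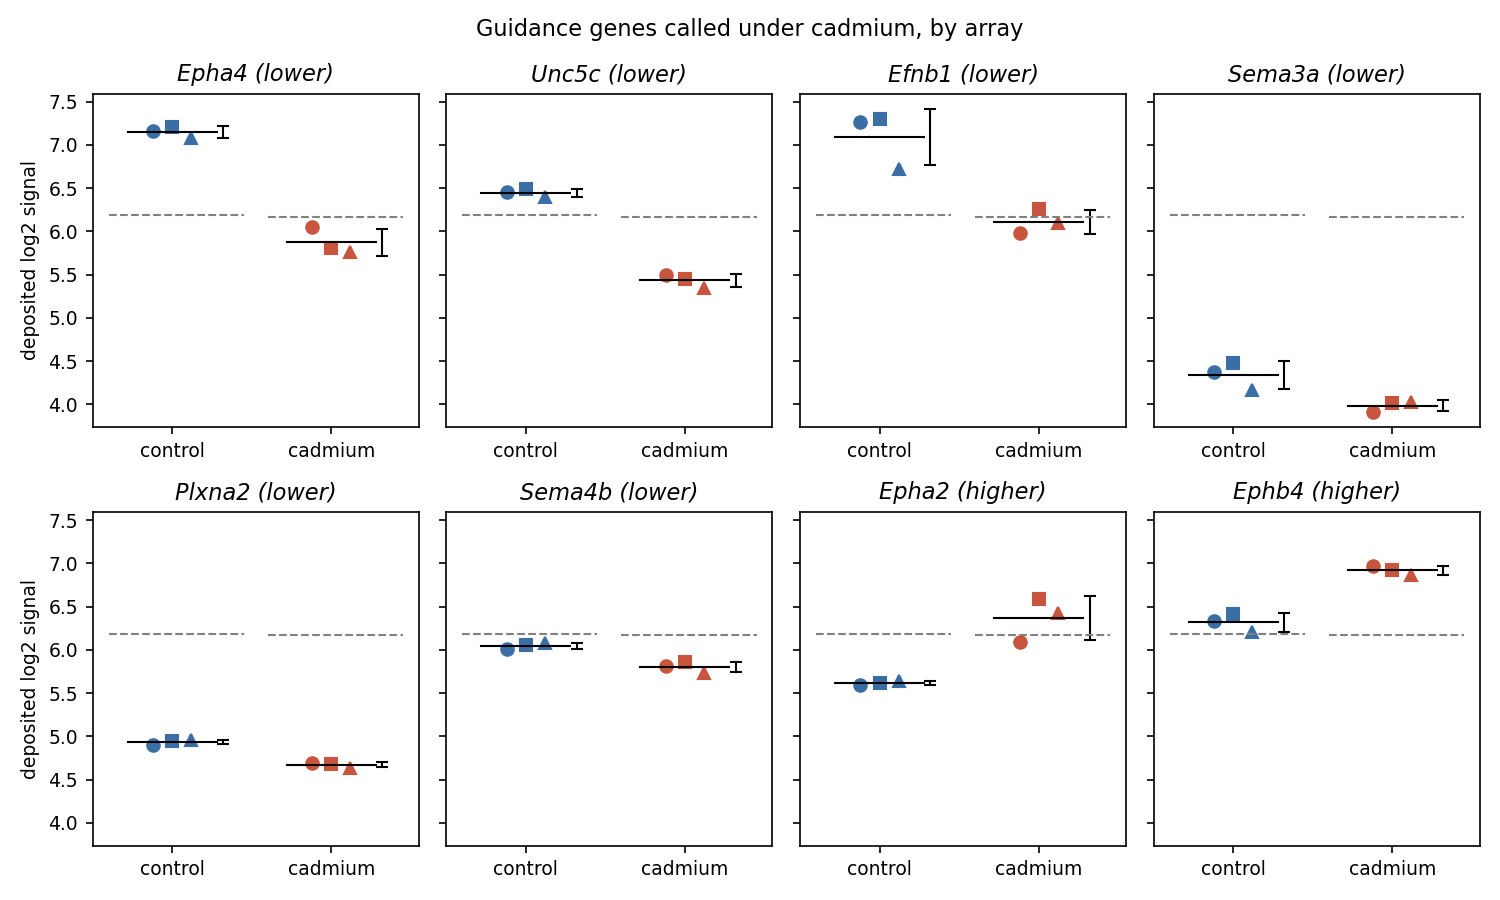
Deposited log2 signal of the 8 called guidance genes on each array, with control cultures in blue and cadmium cultures in red. Circles, squares and triangles are replicates 1, 2 and 3, horizontal bars are means, whiskers are ± 1 SD (n = 3), and the dashed line is the mean background bound of the group. The groups are apart for all 8 genes, and Sema3a, Plxna2 and Sema4b lie under the bound in both.

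**Figure D2:**
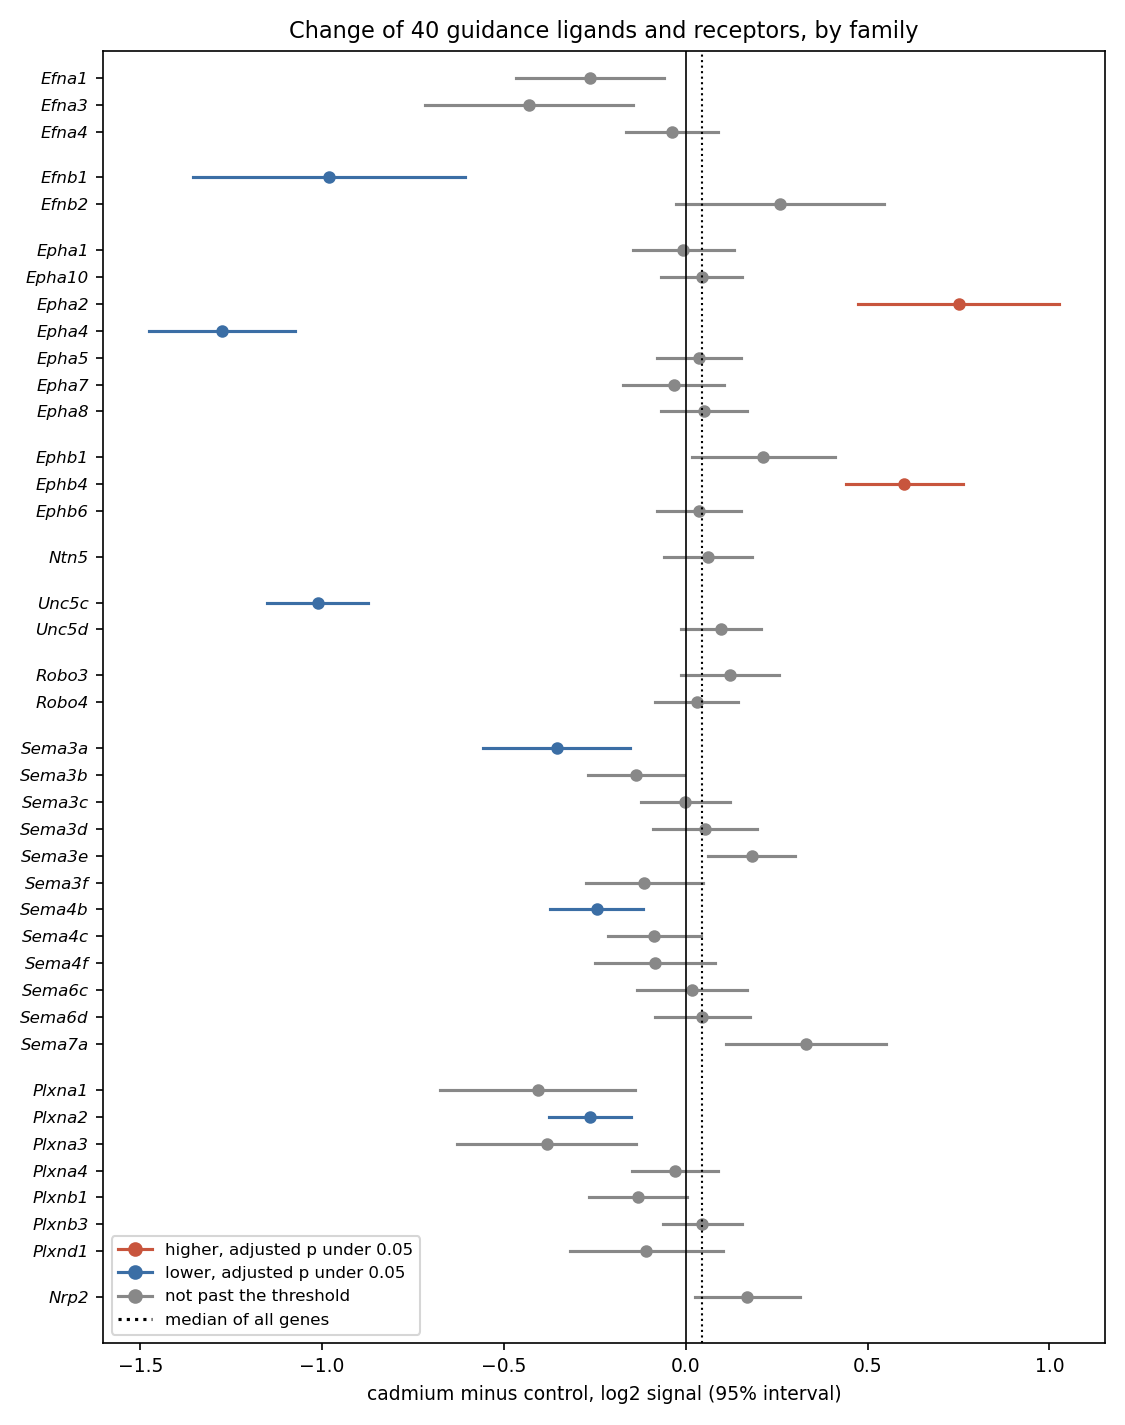
Cadmium minus control on the log2 scale for the 40 guidance ligands and receptors, grouped by family, with 95% intervals from limma. Red and blue mark genes called higher and lower, and the dotted line is the median of all genes. Epha4 at -1.28, Unc5c at -1.01 and Efnb1 at -0.98 stand to the left, Epha2 at 0.75 and Ephb4 at 0.60 to the right.

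Among the Eph receptors, the largest family of receptor tyrosine kinases, 2 of 10 measured genes rose and 1 fell. Epha4 encodes a receptor that binds ligands of both the ephrin-A and the ephrin-B class. Its signals were 7.16, 7.21 and 7.08 in control and 6.05, 5.81 and 5.76 in cadmium cultures. Every cadmium array lay more than a unit under every control array, and below the background bound. The level fell by 1.28 ± 0.09 (SE) on the log2 scale, at least 1.97-fold (limma adjusted p = 0.00139).

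Epha2 encodes a receptor of ephrin-A ligands that is widespread in epithelia. Control signals of 5.60, 5.62 and 5.64 lay close together, and cadmium signals were 6.10, 6.59 and 6.42. The lowest cadmium array, replicate 1, was still above every control array, and 2 of the 3 cadmium arrays passed the background bound while the control arrays did not. The change was 0.75 ± 0.12 (SE), at least 1.13-fold (limma adjusted p = 0.00838). Without cadmium replicate 1 it was 0.89, the highest over the fits with 1 array left out, and the lowest was 0.64.

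Ephb4 encodes the receptor that pairs with ephrin-B2, a couple known from the separation of arteries and veins. It read 6.34, 6.42 and 6.20 in control and 6.97, 6.93 and 6.86 in cadmium cultures. All 6 arrays were above the background bound, which holds for no other called gene. Its signal rose 1.52-fold, by 0.60 ± 0.07 (SE, limma adjusted p = 0.00254), and the groups did not overlap.

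The other 7 Eph receptor genes did not pass and lay under the background bound on every array. Ephb1 had the largest difference among them, at 0.21 with a 95% interval of 0.02 to 0.41 (limma adjusted p = 0.144), and a second probe of the same gene gave -0.04, so its direction depends on the probe. For Epha1, Epha5, Epha7, Epha8, Epha10 and Ephb6, differences ran from -0.03 to 0.05, and the 95% intervals together spanned -0.17 to 0.17. Epha5, a receptor studied in beta cells, was at 2.74 ± 0.03 and 2.78 ± 0.03 (SD, n = 3 each).

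Promoter sequences are shown for the 5 genes whose calls stood with any 1 array left out, since both rising and falling genes are among them. They are the 250 bases before the annotated start, from RefSeq on GRCm38.p6, 5′ to 3′ on the strand of the gene. Capitals mark matches to the core of the metal response element, the site of the zinc-sensing factor Mtf1, searched as TGCACNC or TGCGCNC on both strands. The Epha4 window is chr1:77515089-77515338 on the minus strand, that of Unc5c chr3:141465314-141465563 on the plus strand, and that of Efnb1 chrX:99135811-99136060 on the plus strand. The Epha2 window is chr4:141300971-141301220 on the plus strand, and that of Ephb4 chr5:137349859-137350108 on the plus strand.
Epha4: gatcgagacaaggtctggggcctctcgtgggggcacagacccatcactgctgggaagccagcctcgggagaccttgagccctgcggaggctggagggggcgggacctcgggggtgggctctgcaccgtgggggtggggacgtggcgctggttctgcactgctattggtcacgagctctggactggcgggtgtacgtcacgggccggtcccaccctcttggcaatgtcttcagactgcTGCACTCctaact
Unc5c: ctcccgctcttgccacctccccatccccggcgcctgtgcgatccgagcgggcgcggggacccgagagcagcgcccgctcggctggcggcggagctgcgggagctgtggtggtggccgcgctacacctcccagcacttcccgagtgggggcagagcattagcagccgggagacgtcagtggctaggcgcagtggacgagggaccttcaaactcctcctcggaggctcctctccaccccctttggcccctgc
Efnb1: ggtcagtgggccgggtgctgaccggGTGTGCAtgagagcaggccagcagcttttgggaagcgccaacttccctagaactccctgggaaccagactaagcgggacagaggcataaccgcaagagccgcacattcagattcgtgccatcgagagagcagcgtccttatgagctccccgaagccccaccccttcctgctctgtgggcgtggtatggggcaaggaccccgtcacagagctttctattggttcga
Epha2: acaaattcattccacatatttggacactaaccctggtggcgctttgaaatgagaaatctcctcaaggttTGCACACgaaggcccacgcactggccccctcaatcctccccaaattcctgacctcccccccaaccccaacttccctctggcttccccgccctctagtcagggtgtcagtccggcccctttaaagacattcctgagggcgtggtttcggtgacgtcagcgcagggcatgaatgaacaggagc
Ephb4: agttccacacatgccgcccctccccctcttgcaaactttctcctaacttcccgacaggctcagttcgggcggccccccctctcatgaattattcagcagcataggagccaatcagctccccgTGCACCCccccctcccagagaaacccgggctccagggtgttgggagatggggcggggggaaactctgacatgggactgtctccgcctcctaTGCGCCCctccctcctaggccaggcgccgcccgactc
Ephb4 held 2 matches, Epha4, Efnb1 and Epha2 held 1 each, and the letters are not in the Unc5c window. The match in Epha4 lies 13 to 7 bases before the start, and the nearer match in Ephb4 37 to 31 bases before it. Among windows of the same length, 21.4% of 32851 in the table and 14 of 42 windows of guidance genes (33.3%) held the core, over the 35 guidance genes found in the table. Member windows were richer in G and C, with a median of 64.2% against 52.4%. The core of the antioxidant response element, TGACNNNGC, was in 3 of the 42 windows and in 10.2% of all. The heat shock element, inverted repeats of GAA, was not found in these 42 windows and occurs in 0.466% of all. Of the 8 called genes, Epha4, Efnb1, Epha2, Ephb4 and Sema4b held the metal core in at least 1 window, Sema4b in 1 of its 2. Counted in the same way, 14 of the 35 guidance genes held it. A match is a description of letters, not of binding.

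Of the ephrins, the membrane-bound ligands of these receptors, Efnb1 fell and the other 4 measured did not pass. Efnb1 encodes ephrin-B1, a transmembrane ligand that can itself signal into its cell. In control cultures it was at 7.26, 7.30 and 6.72, and with cadmium at 5.98, 6.26 and 6.10. Control replicate 3 was nearer to the cadmium arrays than its fellows but did not reach them. The level fell by 0.98 ± 0.16 (SE) on the log2 scale, 1.97-fold in measured signal with 1 of 3 cadmium arrays above the bound (limma adjusted p = 0.00949). Leaving out control replicate 3 moved the change to -1.17.

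Efnb2 encodes ephrin-B2, the ligand paired with Ephb4, and was far above the bound on every array. Its signals were 8.67, 8.84 and 8.67 in control and 8.71, 9.15 and 9.10 in cadmium cultures, where replicate 1 lay among the controls. The change was 0.26 ± 0.12 (SE), with a 95% interval of -0.03 to 0.54 (limma adjusted p = 0.21). Without cadmium replicate 1 it passed, at an adjusted p of 0.0208, and with another array left out the adjusted p was up to 0.45.

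Every ephrin-A gene measured was lower with cadmium in mean, and none passed. Efna3 read 7.22, 7.27 and 6.80 in control and 6.68, 6.67 and 6.64 in cadmium cultures, so the groups did not overlap although control replicate 3 was the nearest to the cadmium arrays. Its change was -0.43 ± 0.12 (SE, limma adjusted p = 0.0626), and -0.58 without control replicate 3 (adjusted p = 0.00242). With another array left out the adjusted p of Efna3 was up to 0.173. Efna1, the ligand best known for binding Epha2, lay under the background bound on every array and changed by -0.26 (limma adjusted p = 0.0956). Its adjusted p was 0.0378 without control replicate 3 and up to 0.238 with another array left out. Efna4 differed by -0.04, with a 95% interval of -0.17 to 0.09.

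Among netrin receptors, Unc5c, which mediates repulsion by netrin-1, fell. It read 6.46, 6.49 and 6.40 in control and 5.50, 5.45 and 5.35 in cadmium cultures. Both groups were tight, and the cadmium arrays all lay below the background bound that the control arrays passed. The level fell by 1.01 ± 0.06 (SE) on the log2 scale, at least 1.21-fold (limma adjusted p = 0.000932). Its relative Unc5d was at 3.53 ± 0.01 and 3.63 ± 0.03 (SD, n = 3 each), under the bound, with a difference of 0.10 that did not pass (limma adjusted p = 0.225). Ntn5, the netrin measured here, differed by 0.06 with a 95% interval of -0.06 to 0.18.

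The Robo family includes receptors of Slit proteins, and both measured members lay under the background bound on every array. Robo3, which silences Slit repulsion in commissural axons, was at 4.10 ± 0.07 in control and 4.23 ± 0.04 in cadmium cultures (limma adjusted p = 0.209). Robo4, a receptor of vessel walls, was at 4.51 ± 0.04 and 4.54 ± 0.01 (limma adjusted p = 0.717). The Robo3 difference of 0.12 has a 95% interval of -0.01 to 0.26, and that of Robo4, 0.03, an interval of -0.08 to 0.14.

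Of 12 semaphorin genes 2 fell, both under the background bound on every array. Sema3a encodes the secreted semaphorin that collapses growth cones through neuropilin-1 and A plexins. It was at 4.38, 4.47 and 4.17 in control and 3.91, 4.02 and 4.02 in cadmium cultures, a change of -0.35 ± 0.09 (SE, limma adjusted p = 0.0389). The groups did not overlap, but the call stood only when the array left out was control replicate 3, and with each of the other 5 left out in turn the adjusted p was up to 0.119. Sema4b, a transmembrane semaphorin, read 6.01, 6.06 and 6.08 against 5.82, 5.86 and 5.73, a change of -0.24 ± 0.05 (SE, limma adjusted p = 0.03). That call was lost whichever array was left out, at adjusted p of 0.0514 to 0.103.

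Sema7a and Sema3e had the largest differences upward in the family. Sema7a, a semaphorin anchored by a lipid and known from immune cells, was at 5.30, 5.28 and 5.10 in control and 5.40, 5.72 and 5.56 in cadmium cultures. Every array lay under the background bound. The groups did not overlap, and the change was 0.33 ± 0.09 (SE, limma adjusted p = 0.0631). The adjusted p was 0.0331 without cadmium replicate 1 and up to 0.16 with another array left out. Sema3e, the ligand of plexin-D1, differed by 0.18 (limma adjusted p = 0.0617) at levels of 2.68 to 2.94, far under the bound. Sema3b, a secreted semaphorin, was at 6.31 ± 0.06 and 6.17 ± 0.05 (SD, n = 3 each), next to the bound, and did not pass (limma adjusted p = 0.158). The other 7 genes, Sema3c, Sema3d, Sema3f, Sema4c, Sema4f, Sema6c and Sema6d, differed by -0.11 to 0.05 with adjusted p of at least 0.313. Their 95% intervals together spanned -0.27 to 0.20.

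Plexins are the signalling receptors of semaphorins, and all 4 measured members of the A class had lower means with cadmium, of which Plxna2 passed. Plxna2 was at 4.91, 4.94 and 4.95 in control and 4.69, 4.68 and 4.64 in cadmium cultures, a narrow but complete separation below the background bound. Its change was -0.26 ± 0.05 (SE, limma adjusted p = 0.0143), and it missed the threshold when control replicate 2, or replicate 2 or 3 of the cadmium cultures, was left out, at an adjusted p of up to 0.0608. Plxna1 and Plxna3 had larger differences on brighter probes, above the bound on every array. Plxna1 read 7.59, 7.63 and 7.34 against 6.91, 7.27 and 7.16, a change of -0.41 ± 0.11 (SE, limma adjusted p = 0.0626). Plxna3 read 7.13, 7.11 and 6.75 against 6.62, 6.65 and 6.58, a change of -0.38 ± 0.10 (SE, limma adjusted p = 0.0578). In both genes control replicate 3 was the lowest control array, and without it the adjusted p was 0.0394 for Plxna1 and 0.00403 for Plxna3. With another array left out it was up to 0.181 for Plxna1 and 0.17 for Plxna3. Plxna4 differed by -0.03, with a 95% interval of -0.15 to 0.09.

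The plexins of the B and D classes did not pass. Plxnb1, a receptor of Sema4d, was at 6.07 ± 0.01 in control and 5.94 ± 0.08 in cadmium cultures (limma adjusted p = 0.184). Plxnb3 differed by 0.05 and Plxnd1, the receptor of Sema3e in vessels, by -0.11, with 95% intervals of -0.06 to 0.15 and -0.32 to 0.10. Nrp2, the co-receptor of class 3 semaphorins measured here, was at 6.09, 6.19 and 6.17 in control and 6.41, 6.32 and 6.24 in cadmium cultures. Its groups did not overlap, yet the difference of 0.17 ± 0.06 (SE) did not pass (limma adjusted p = 0.12).

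Over the 40 genes the groups did not overlap in 10 cases with cadmium higher and in 12 with cadmium lower. Those 22 make 55.0%, against 35.9% of all genes tested that were apart in this way, 22.9% with cadmium higher and 13.0% with it lower. The shares of all genes again take in genes at any level. Of 18 ligand genes 3 fell, with a median change of -0.06, and of the 22 receptor genes 2 rose and 3 fell, with a median of 0.03. Whether ligands and receptors differ was not tested. With each array centred on its median the medians became -0.11 and -0.02, so that of the receptors turned its sign. The 5 genes just past the threshold on the other side were Plxna3, Sema3e, Plxna1, Efna3 and Sema7a, at adjusted p of 0.0578 to 0.0631. Of the 2 symbols matched by letters only, Unc50 fell by 0.29 on the log2 scale (limma adjusted p = 0.0112, and 0.0528 without control replicate 1) and Plxna4os1 differed by 0.23 (limma adjusted p = 0.335).

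**Figure D3:**
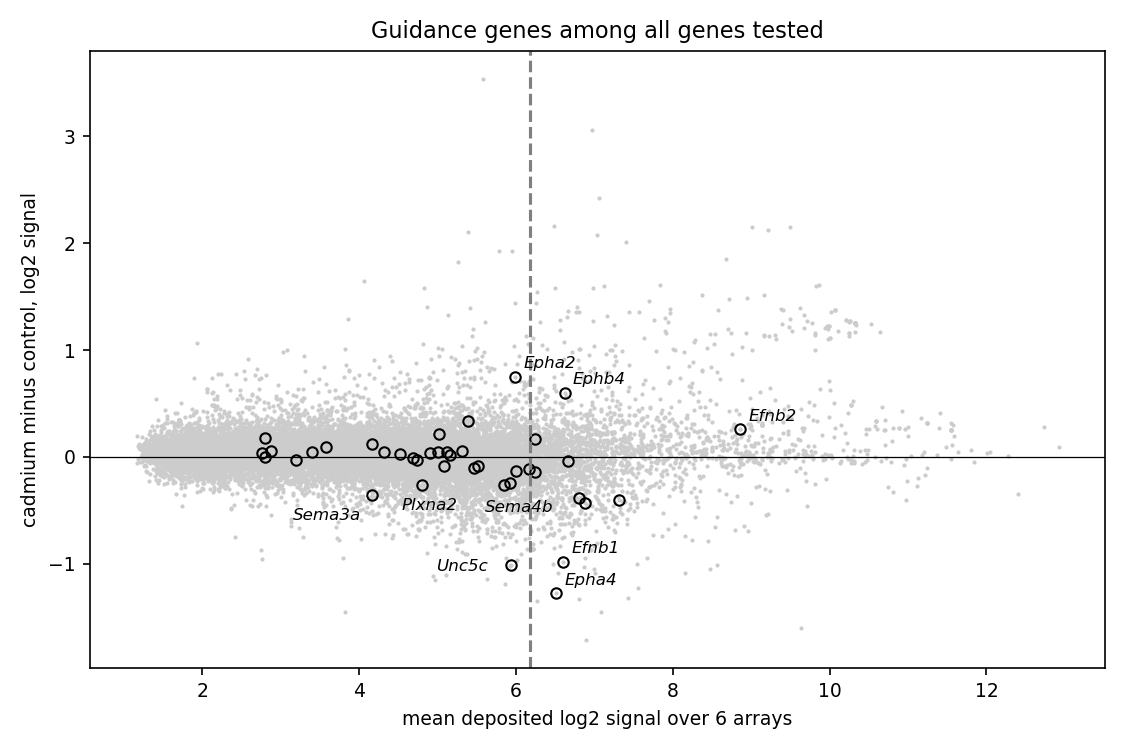
Cadmium minus control against the mean deposited log2 signal over the 6 arrays for all 19021 genes tested (grey points), with the 40 guidance genes as open circles. The dashed line is the mean background bound of 6.18. The called genes and Efnb2 are named, and most of the other guidance genes lie left of the line and near 0.

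Other genes of the pathways were taken from 4 lists with 53 measured members, and 3 of the lists are described one by one. Of the 53 genes 5 rose and 11 fell, beside the 6.47% and 5.73% of all genes given above. With any 1 array left out, 7 of the 16 kept their calls. Those shares take in genes at any level, whereas 50 of the 53 lay at or above the median level. When control replicate 1 or 2, or cadmium replicate 2 or 3, was left out 1 was higher, and 3 were when control replicate 3 was. Lower genes numbered 7 with control replicate 2 left out, 6 with cadmium replicate 2 and 7 with cadmium replicate 3. With each array centred on its median 3 rose and 14 fell.

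In the list of co-receptors and other cues, 3 of 13 genes fell, with a median change of -0.12. Neo1 encodes neogenin, a receptor of netrins and repulsive guidance molecules. It was at 6.96, 7.07 and 6.91 in control and 6.25, 6.10 and 6.09 in cadmium cultures, where every array lay under the background bound, and its signal fell by 0.83 ± 0.07 (SE, limma adjusted p = 0.00147). The cell adhesion gene Chl1, of the L1 family, changed by -0.37 and Flrt3, whose protein binds Unc5 receptors, by -0.53 (limma adjusted p = 0.00834 and 0.0114), both under the background bound. Flrt3 missed the threshold when cadmium replicate 2 was left out, at an adjusted p of 0.0517.

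Of 18 adaptors, tyrosine kinases and cytoskeletal effectors 3 rose. Cap1, which recycles actin monomers, rose from 7.14 ± 0.01 to 7.53 ± 0.06 (limma adjusted p = 0.00446) and kept its call with any 1 array left out. Dpysl5, of the collapsin response mediators, and Gipc1, an adaptor of neuropilin-1, rose by 0.23 and 0.28 (limma adjusted p = 0.0295 and 0.049). With arrays centred their adjusted p was 0.0615 and 0.0892, and both stood only when the array left out was cadmium replicate 1, reaching 0.107 and 0.152 otherwise.

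In the list of proteases that cut guidance proteins, 3 of 7 genes fell and 1 rose. Adam10, the sheddase of ephrins and Eph receptors, was at 9.22, 9.29 and 8.51 in control and 7.83, 7.99 and 8.05 in cadmium cultures. Control replicate 3 was again the lowest control array, and the change was -1.05 ± 0.20 (SE, limma adjusted p = 0.0165). The call was lost without control replicate 1 or 2 and without replicate 2 or 3 of the cadmium cultures, at an adjusted p of up to 0.0626. Ncstn, a subunit of gamma-secretase, fell from 7.11 ± 0.10 to 6.48 ± 0.10, and Bace1, beta-secretase, from 6.23 ± 0.14 to 5.57 ± 0.06 (limma adjusted p = 0.00318 and 0.00289). Bace1 was above the background bound on 2 of 3 control arrays and on none of the cadmium arrays. Mmp9, a secreted metalloprotease, rose by 0.28 under the bound (limma adjusted p = 0.0265), and that call was lost whichever array was left out.

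Many guidance genes are also expressed by neurons, vessels and fibroblasts, so markers of such cells were read on the same arrays. Of 3 measured nerve markers 2 rose (limma adjusted p = 0.00258 and 0.031, the latter lost whichever array was left out). Tubb3 went from 5.82 ± 0.15, under the bound, to 6.68 ± 0.14 and Snap25 from 3.63 ± 0.06 to 3.86 ± 0.01, both under it. Map2 differed by -0.004. The summed linear signal of the list, of which Tubb3 is the largest part, was 86.7 to 106 in control and 131 to 155 in cadmium cultures. Of 4 fibroblast markers 1 fell, Col3a1, from 9.07 ± 0.13 to 8.06 ± 0.17 (limma adjusted p = 0.00181), while Col1a2, Thy1 and Fap lay under the background bound. The sum, 573 to 662 against 302 to 377, is mostly the signal of Col3a1. The 6 endothelial markers lay under the bound on every array and did not pass, with sums of 114 to 123 and 108 to 124. The 4 duct and acinar markers lay under the bound on every array. Of these Cftr fell, from 3.26 ± 0.11 to 2.84 ± 0.06 (limma adjusted p = 0.0101). Cpa1, Amy2b and Prss2 differed by 0.22, 0.10 and -0.07 and did not pass, although the groups of Cpa1 did not overlap. Summed signals of the list were 42.5 to 44.6 in control and 43.0 to 46.7 in cadmium cultures. Islet hormone and leukocyte markers, 2 of each measured, did not pass and had sums of 27.1 to 27.9 against 26.1 to 27.1 and of 15.4 to 16.8 against 16.6 to 16.9. The beta cell list summed to 137 to 147 and 149 to 150.3. All 6 cultures were labelled as NIT-1, a single cell line. A marker here is a transcript level and does not count cells of any kind. The part of these markers in the guidance results was not tested, nor was the make-up of the cultures.

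**Figure D4:**
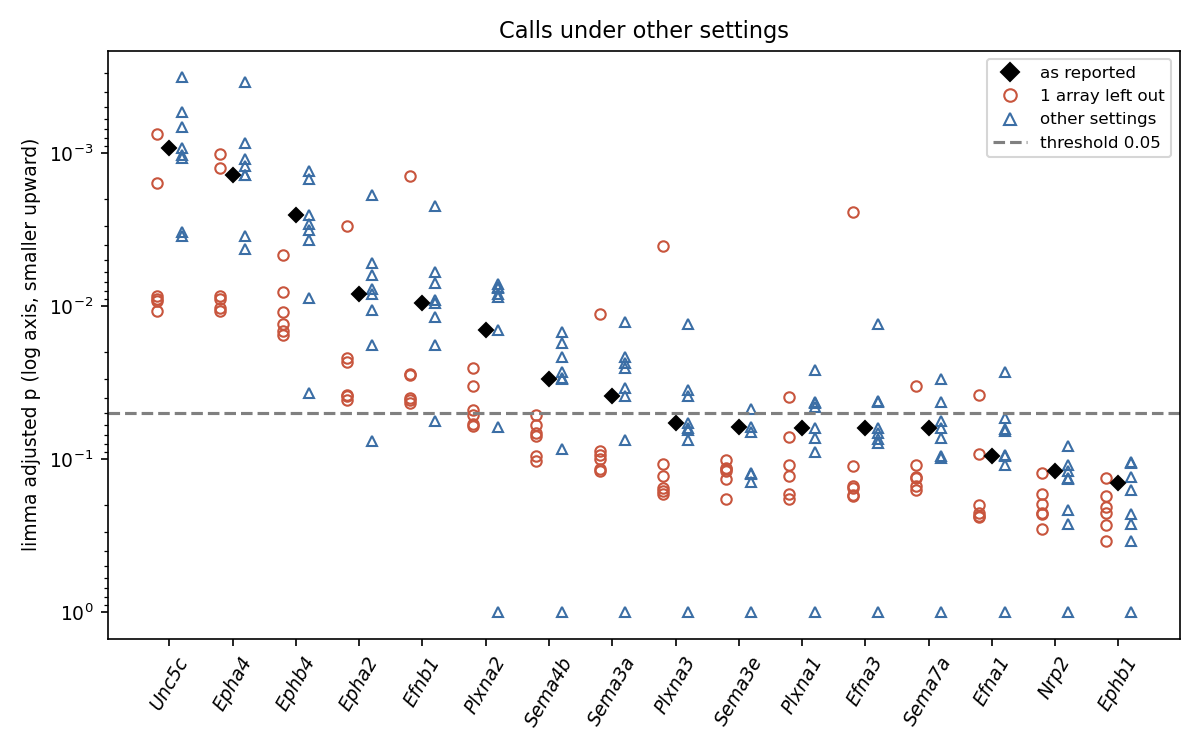
Limma adjusted p of the 8 called guidance genes and the 8 that came next, on a log axis with smaller values upward. Diamonds are the reported fit, circles the 6 fits with 1 array left out and triangles the other settings, where the points at 1 come from the test against a minimum change of 0.26. Unc5c, Epha4 and Ephb4 stay past the dashed threshold of 0.05 in all of them, whereas Sema4b misses it in each of the 6 fits with 1 array left out.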

How the data were processed

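Total RNA of 6 NIT-1 cultures, 3 per group, was read on 1-colour arrays. The authors deposited 1 value per transcript cluster and array, whose log2 scale is inferred from the range of the deposited values. The background correction, the normalization and their software were "not given in the sources used here". No further scaling was applied. Of 39746 clusters 19270 had 1 gene in the platform annotation, 875 had several and 19601 had none there. Symbols were updated by gene identifier through RefSeq (GRCm38.p6), and by synonym where no identifier was given. The brightest probe stood for a gene. No filter on level was applied, so all 40 genes were tested, and the number of columns without a sample was 0.

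Groups came from the sample titles. Limma 3.58.1 in R 4.3.3 (lmFit, eBayes, group as the only term) was run over 19021 genes, two-sided, with Benjamini-Hochberg adjustment, and tested on simulated data. Nothing says whether the cultures were separate passages, so each p-value reflects only how far these 6 samples spread, which may be technical, and the number of arrays limits their precision. A fold was computed as a lower bound where 1 group lay under the background bound on every array, with that group's arrays raised to the bound. Members, lists and the rule for named genes were chosen with earlier results of these data known. The rule named every called member, the brightest and the lowest adjusted p of each family or class, up to 4 called genes per pathway list, and others where a result turns on them. Alternatives changed the scaling, filter, probe, variance model, array weights, block, threshold, minimum change and arrays. Figures were drawn with matplotlib 3.10.9. Of the 4 pathway lists 1 enters the counts over all lists and is not reported on its own here.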

Additional observations from a re-analysis of the deposited data

How the results depend on the processing

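The 8 called guidance genes kept their direction in every fit run. Centring, quantile normalization, averaging of probes, a trended variance and a filter at the median level, which left 33 of the 40 genes, called 2 or 3 higher and 6 to 9 lower. With array weights 4 were higher and 10 lower, with a minimum change of 0.26 1 was higher and 2 lower, and at an adjusted p under 0.01 3 were lower. With 1 array left out 2 to 4 were higher and 3 to 9 lower, and without control replicate 3 and cadmium replicate 1, a setting chosen after seeing the data, 4 and 9. Unc5c, Epha4 and Ephb4 stayed called in all of these, and Efnb1 and Epha2 missed the threshold with the minimum change only, at adjusted p of 0.056 and 0.0758. Of the 53 pathway genes, the number higher was 3 with centring, 3 after quantile normalization, 9 with array weights, 1 at an adjusted p under 0.01 and 1 to 6 with 1 array left out. With the minimum change (limma treat) 0 were higher, against 5 in the reported limma fit. Under the setting chosen after seeing the data 7 were higher and 13 lower. The number lower was 3 with the minimum change, 6 at the stricter threshold and 6 to 12 with 1 array left out. The labels do not say whether a replicate number is shared between the groups. Deviations of same-numbered arrays correlated at -0.11, 0.06 and -0.11, which cannot show whether those cultures shared a passage or a day. With the replicate number as a block 2 guidance genes were higher and 3 lower, and 2 pathway genes were higher. Over all genes 2320 (12.2%) were called in the reported fit, 3412 (17.9%) with array weights, 2322 of the 9511 at or above the median level (24.4%), 1394 with the block, 432 with the minimum change, and 1148 to 1190 with any array but control replicate 3 or cadmium replicate 1 left out. The minimum-change test and the block by construction ask for more or leave fewer degrees of freedom, and the cause of other shifts was not tested. Levels near or under the background bound limit what could be seen for most guidance genes.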

Other observations

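Clusters that carry a second symbol were left out of the guidance genes, and 2 of them belong to these families. The cluster shared by Nrp1, which encodes the co-receptor of Sema3a, and Mir1903 was at 6.16, 6.21 and 5.65 in control and 5.22, 5.51 and 5.46 in cadmium cultures, below the background bound on every array. Fitted with limma together with all genes it changed by -0.61 ± 0.15 (SE), with an adjusted p of 0.046. Control replicate 3 was the lowest control array there as well. The cluster shared by Sema4a and Mir7011 was at 4.95 ± 0.07 and 5.04 ± 0.03 (SD, n = 3 each), with an adjusted p of 0.317 in limma. Which of the symbols on a cluster its signal belongs to was not tested.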
